A study of Mus musculus with 40 samples.

Results

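The genes described here are the MHC and antigen presentation genes of mouse gonadal white adipose tissue. They were taken by name: all genes of the array annotation whose symbol starts with H2-, together with B2m, Tap1, Tap2, Tapbp, Cd74, Ciita, Psmb8, Psmb9 and Nlrc5. The rule gave 44 genes of 16593 with a probe of 1 symbol. Of these, 24 encode class I heavy chains, 7 belong to the class I machinery, 12 belong to class II, and H2-Ke6 is a neighbour in the same region that takes no part in presentation. Each gene was represented by its brightest probe.

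The tissue came from 40 young adult male C57BL/6J mice, with 1 bead array for each animal. Dams were kept on an LF (low in fat) or HF (high in fat) diet from before mating until weaning, and their sons then ate either diet. This gave 4 groups of 10 animals, named with the maternal diet first: LL and LH from LF dams, HL and HH from HF dams. The litters came from 12 cages (6 of LF and 6 of HF dams), and no cage held both maternal diets. Both post-weaning diets were present in 5 of them.

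Every nucleated cell carries class I molecules, in which a heavy chain (H2-K1, H2-D1 and their relatives) pairs with beta-2 microglobulin (B2m) and displays peptides cut by the immunoproteasome (Psmb8, Psmb9), pumped into the endoplasmic reticulum by the transporter Tap1 and Tap2, and loaded with the help of tapasin (Tapbp). Class II molecules pair an alpha and a beta chain (H2-Aa with H2-Ab1), are guarded by the invariant chain Cd74 and are loaded by H2-DM, mostly in macrophages, dendritic cells and B cells. Nlrc5 is the transactivator of class I genes and Ciita that of class II genes, and both act on promoters through factors that include the CCAAT-binding factor NF-Y. In adipose tissue, resident macrophages and dendritic cells are known carriers of class II, and adipocytes can carry it too.

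The promoter windows of 6 members are shown because they belong to genes that were to be named whatever their result and because they hold the CCAAT box in different arrangements. Each window runs from 250 bases before to 50 after the RefSeq start, 5′ to 3′ on the strand of the gene, in build GRCm38.p6: H2-K1 at chr17:34000298-34000597 (minus strand), H2-D1 at chr17:35262844-35263143 (plus), B2m at chr2:122147437-122147736 (plus), Tap1 at chr17:34187306-34187605 (plus), H2-Aa at chr17:34287774-34288073 (minus) and H2-Eb1 at chr17:34305617-34305916 (plus). Capitals mark CCAAT or its reverse complement ATTGG, and in B2m also the interferon-stimulated response element core, taken as GAAA, any 2 bases and GAAA again.
H2-K1: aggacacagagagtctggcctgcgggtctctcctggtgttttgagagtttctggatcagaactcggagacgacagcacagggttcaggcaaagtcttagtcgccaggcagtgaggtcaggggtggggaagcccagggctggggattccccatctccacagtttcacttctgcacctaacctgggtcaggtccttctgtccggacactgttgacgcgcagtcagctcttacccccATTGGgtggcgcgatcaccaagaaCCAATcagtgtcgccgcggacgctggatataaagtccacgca
H2-D1: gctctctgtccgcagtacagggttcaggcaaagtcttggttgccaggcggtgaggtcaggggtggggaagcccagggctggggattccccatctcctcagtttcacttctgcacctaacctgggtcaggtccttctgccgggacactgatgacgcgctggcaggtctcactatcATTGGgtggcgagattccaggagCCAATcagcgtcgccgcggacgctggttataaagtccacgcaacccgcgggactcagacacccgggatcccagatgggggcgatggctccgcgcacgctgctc
B2m: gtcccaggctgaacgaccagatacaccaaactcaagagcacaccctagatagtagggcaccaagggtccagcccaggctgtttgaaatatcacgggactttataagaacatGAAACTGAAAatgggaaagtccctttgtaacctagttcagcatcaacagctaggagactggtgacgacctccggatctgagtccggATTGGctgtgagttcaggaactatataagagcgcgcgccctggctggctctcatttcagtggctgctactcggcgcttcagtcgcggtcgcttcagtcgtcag
Tap1: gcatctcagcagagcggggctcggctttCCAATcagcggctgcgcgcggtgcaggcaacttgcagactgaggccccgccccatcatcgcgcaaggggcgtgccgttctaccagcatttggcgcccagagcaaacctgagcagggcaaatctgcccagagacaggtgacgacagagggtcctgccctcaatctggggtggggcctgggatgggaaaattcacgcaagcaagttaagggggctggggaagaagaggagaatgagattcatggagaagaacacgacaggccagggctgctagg
H2-Aa: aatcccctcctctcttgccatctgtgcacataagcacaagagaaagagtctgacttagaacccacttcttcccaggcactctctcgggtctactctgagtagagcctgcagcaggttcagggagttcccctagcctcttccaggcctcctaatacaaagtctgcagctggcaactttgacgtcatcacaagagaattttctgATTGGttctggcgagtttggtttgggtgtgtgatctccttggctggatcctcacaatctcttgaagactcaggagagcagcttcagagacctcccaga
H2-Eb1: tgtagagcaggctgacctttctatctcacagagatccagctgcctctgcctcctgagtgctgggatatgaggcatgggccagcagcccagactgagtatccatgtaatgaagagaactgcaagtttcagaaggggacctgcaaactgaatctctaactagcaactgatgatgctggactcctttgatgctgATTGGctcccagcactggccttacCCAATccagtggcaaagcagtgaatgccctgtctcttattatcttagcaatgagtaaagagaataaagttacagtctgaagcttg

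Windows were matched for 32 of the 44 genes, and none was available for Nlrc5, H2-T10, H2-Ab1, Cd74 or Ciita. Of the 32, 28 held CCAAT on either strand, against 37.9% of 27018 promoter windows of the same length. These windows are not independent, since many class I genes are copies of each other. H2-K1, H2-D1 and H2-Eb1 each carried ATTGG followed by CCAAT, with starts 24 bases apart in H2-K1, 23 in H2-D1 and 24 in H2-Eb1. Aligned end to end, with gaps counted as columns, the H2-K1 and H2-D1 windows were identical at 218 of 361 columns (60.4%). By the same measure H2-K1 and B2m were identical at 184 of 359 (51.3%). ATTGG stood at -16 from the start in H2-K1 and at -76 in H2-D1. These windows are thus shifted against each other, and their unmatched ends count as columns that differ. The interferon-stimulated response element core, searched on both strands, was found in 2 of the 32 windows (B2m and H2-T23) against 3.49% of all windows, and the STAT pattern TTCNNNGAA in 4 against 8.47%. Only exact copies were counted. The stretch agtttcacttct, a near match to the response element core read on the other strand, stands in the H2-K1 and H2-D1 windows and was not counted. The count thus does not show that the other windows lack such elements. Tap1 and Psmb9 stand head to head with 225 bases between their starts, so their windows cover the same stretch and the CCAAT printed for Tap1 is also the one found in the Psmb9 window.

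Of the 44 genes, 27 passed the filter on dim probes, which asked for intensity above the 95th percentile of 1305 olfactory and vomeronasal receptor probes on at least 20 of the 40 arrays. All 7 genes of the class I machinery passed, as did 8 of 12 class II genes, H2-Ke6, and 11 of 24 class I heavy chains. The other 17 stayed at or near background in most animals. They included 5 of the 6 H2-M10 genes, which are known from vomeronasal neurons, and the class II genes H2-Oa, H2-Ob and H2-Eb2. H2-Ea, which strains of the H-2b haplotype such as C57BL/6 are known not to express, was above background on 0 of 40 arrays. Intensities are in arbitrary units and depend on the probe, so levels were compared between animals and never between genes, and the number of arrays limits their precision. Class I heavy chains share long stretches of sequence, so a signal of one of these probes may come from several of them.

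**Figure D1:**
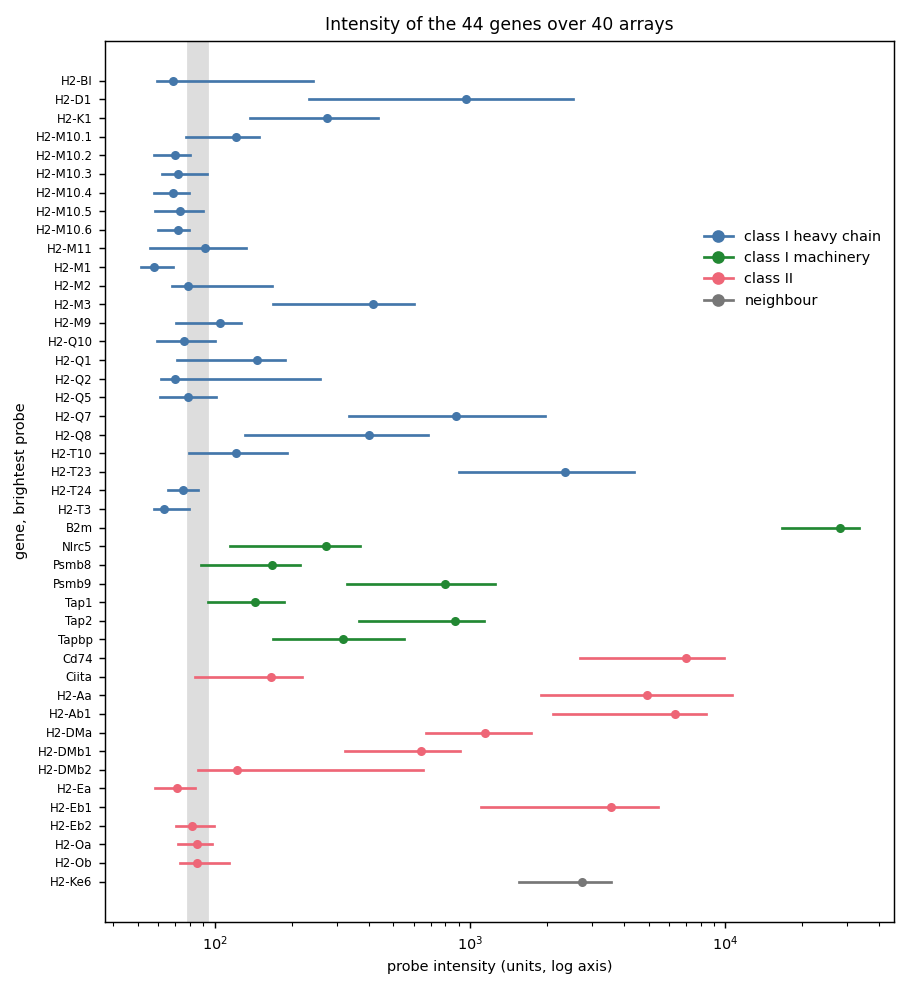
Lowest, median and highest intensity over 40 arrays (line ends and point, log axis) for each of the 44 genes, by class, with the range of the arrays' background limits in grey (78.06 to 94.28 units). All 7 genes of the class I machinery and the classical class II chains H2-Aa, H2-Ab1 and H2-Eb1 lie to the right of the grey band in nearly all animals, while the medians of H2-Ea and most H2-M genes lie below or within it.

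A set of 5 arrays correlated less with the rest than the others did: LL animals 1 and 4 and HL animals 2, 6 and 8. They held the lowest LL value for 25 of the 27 genes and the lowest HL value for 25 of the 27. Their marker levels, as geometric means over the genes of each list that passed the filter, also stood apart. The adipocyte list read 728.6 to 1098.3 units on these arrays and 1643.0 to 3176.1 on the other 35, and the endothelial list 309.7 to 488.4 against 761.1 to 1147.3. The macrophage list read 424.4 to 718.1 against 840.9 to 1672.6, and the dendritic cell list (3 of 8 genes on the array passing) 82.8 to 104.5 against 110.0 to 176.5. The ranges overlapped for T and NK cells (96.3 to 161.8 against 107.1 to 176.4) and for B cells (91.3 to 142.5 against 95.0 to 174.0). The B cell value is that of Cd79b alone, since only 1 of the 6 genes on the array passed the filter. The testis list read 472.5 to 10108.4 units on the low-correlation arrays and 81.4 to 1761.3 on the rest, with 7 of 7 testis genes on the array passing the filter. The epididymis and seminal vesicle list (3 of 8 genes passing) read 287.7 to 8007.2 against 81.5 to 3682.5. LH and HH held none of these arrays. In whole tissue, fewer cells of a type and less RNA per cell cannot be told apart. The counts by class and the differences of most named genes in LH against LL and HH against HL are given below with and without them. The part of the other tissue in the results was not tested.

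The first comparison asks what an HF diet after weaning did in sons of LF dams. No presentation gene was called in LH against LL (limma, Benjamini-Hochberg over 14248 probes, 0 of 27 with adjusted p under 0.05), where 0.218% of all probes were called. At an unadjusted p under 0.05 there were 9 of 27, against 12.8% of all probes, and all 9 belonged to class I. The class I machinery had 7 of 7 genes higher in LH, with a median log2 difference of 0.28, and the class I heavy chains 9 of 11 with a median of 0.17. Class II had 5 of 8 genes higher and a median of 0.05. The median of all probes was 0.03, and 57.2% of them were higher in LH.

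Nlrc5, the class I transactivator, had the smallest p. Its lowest, median and highest intensities were 153.8, 254.2 and 288.6 units among LL animals and 273.6, 331.0 and 371.3 among LH animals. They were 114.8, 246.4 and 305.1 for HL and 190.4, 244.35 and 314.8 for HH. In LH, 9 of 10 animals lay above the highest LL animal, while LL, HL and HH overlapped throughout. The log2 difference of LH against LL was 0.49 ± 0.11 (SE; 95% interval 0.26 to 0.71; adjusted p = 0.0687). Without LL animals 1 and 4 it was 0.36 and was called (adjusted p = 0.0287). It was 0.46 with cages as a fixed term, which compares the diets within the 2 cages of LF dams that held both, and there it was not called (adjusted p = 0.331). Over all alternatives Nlrc5 stayed higher in LH, with log2 differences between 0.35 and 0.66 and adjusted p between 0.0197 and 0.522.

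H2-T10, a nonclassical class I heavy chain of the T region, came next. It read 79.2, 107.55 and 141.6 units (lowest, median, highest) in LL and 118.0, 140.2 and 165.4 in LH. All 10 LH animals were above the LL median and 4 were above the highest LL animal. The log2 difference was 0.39 ± 0.10 (SE, adjusted p = 0.108) and 0.30 without the low-correlation arrays. With background subtraction, which weighs most on dim probes, it was 0.90 (adjusted p = 0.124).

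Tap1, the first subunit of the peptide transporter, read 105.1, 129.85 and 154.2 units in LL and 140.9, 158.8 and 184.5 in LH. Again 10 of 10 LH animals were above the LL median, 6 of them above the highest LL animal. The log2 difference was 0.28 ± 0.07 (SE, adjusted p = 0.125), 0.21 without the low-correlation arrays and 0.53 with background subtraction (adjusted p = 0.155). Psmb9, the immunoproteasome subunit encoded next to Tap1, differed by 0.39 ± 0.15 (adjusted p = 0.287), or 0.20 without the low-correlation arrays. Psmb8, a second immunoproteasome subunit, differed by 0.25 ± 0.11 (adjusted p = 0.323), or 0.14 without them. Tapbp differed by 0.37 ± 0.14 (adjusted p = 0.266), or 0.29 without them.

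H2-K1, a classical class I heavy chain, read 144.3, 268.3 and 347.1 units in LL and 236.5, 300.2 and 435.8 in LH, a log2 difference of 0.34 ± 0.15 (adjusted p = 0.336) that became 0.17 without the low-correlation arrays. A second H2-K1 probe that passed the filter gave -0.02 ± 0.37, so the probes of this gene disagree. B2m, the common light chain of class I, read 17425.7, 28279.0 and 31668.9 units in LL and 24761.8, 28508.85 and 32471.2 in LH. Its medians lay close together, and its log2 difference of 0.09 ± 0.09 (adjusted p = 0.676) became -0.02 without the low-correlation arrays. Among class II genes, H2-Ab1, the beta chain of I-A, differed by 0.10 ± 0.15, Cd74 by 0.09 ± 0.15, H2-Eb1, the beta chain of I-E, by 0.13 ± 0.19 and Ciita by 0.16 ± 0.10 (adjusted p between 0.513 and 0.82). H2-Ab1, Cd74 and H2-Eb1 were below 0 without the low-correlation arrays, at -0.05, -0.06 and -0.10, and Ciita was at 0.06. H2-Aa, the alpha chain of I-A, read 1987.7, 5227.6 and 10655.3 units in LL and 2533.9, 3139.75 and 8676.6 in LH. Its ranges overlapped, with a log2 difference of -0.30 ± 0.31 (adjusted p = 0.691) and -0.59 without the low-correlation arrays. H2-DMb2, a chain of the class II peptide editor, differed by -0.37 ± 0.25 (adjusted p = 0.533), or -0.05 without those arrays. H2-D1, the other classical heavy chain of this strain, differed by -0.03 ± 0.40 (adjusted p = 0.976), or -0.49 without them.

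**Figure D2:**
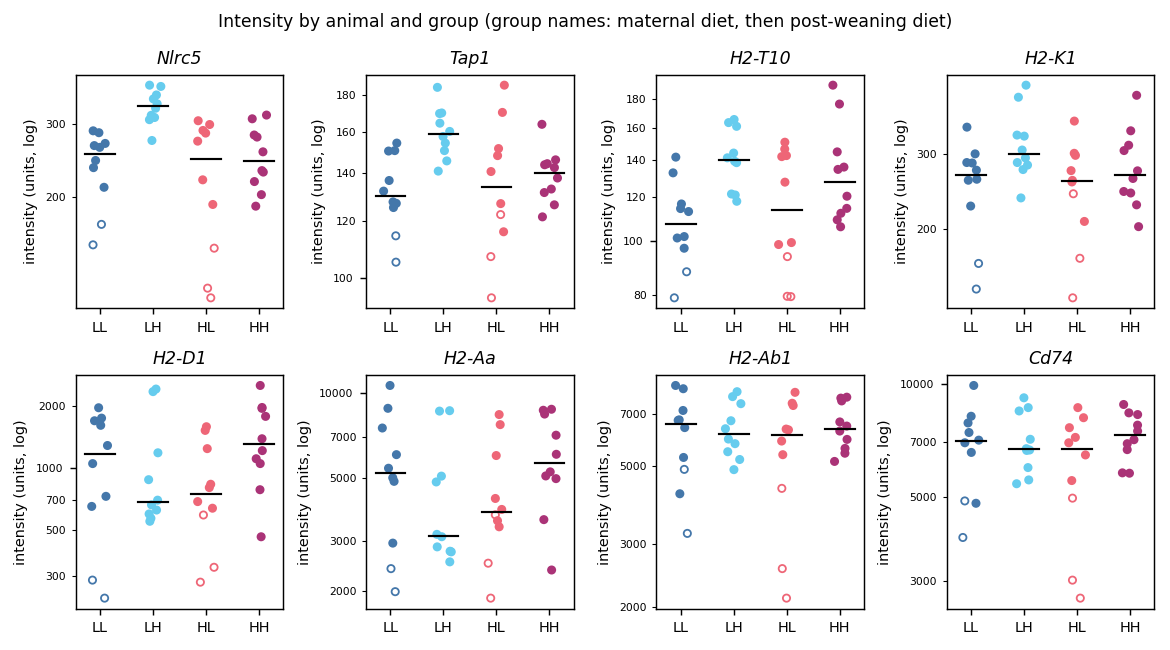
Intensity (units, log axis) of 8 genes in each of the 40 animals by group, with the group median as a line and the low-correlation arrays as open circles. For Nlrc5 the LH animals (273.6 to 371.3 units) sit above nearly all LL animals, whereas for H2-Ab1 and Cd74 the groups overlap and the open circles are the lowest LL and HL points but for 1 LL animal.

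Without the low-correlation arrays, the class I machinery kept 5 of 7 genes above 0 in LH against LL (median 0.20) and class I heavy chains 8 of 11 (median 0.03), whereas class II had 1 of 8 (median -0.06). The marker values that follow include the low-correlation arrays, and marker differences were not computed without them. With those arrays kept, markers of T and NK cells moved beside the class I machinery. Their list read a median of 124.3 units in LL (102.4 to 161.8) and 144.2 in LH (122.9 to 176.4). In it 6 of 7 genes were higher and 0 were called. Within it, Nkg7, a granule protein of NK and cytotoxic T cells, had the smallest p, with a log2 difference of 0.37 ± 0.11 (adjusted p = 0.16). Cd4, Cd8a and Gzma of the same list did not pass the filter. Macrophage markers had 2 of 6 genes higher (median -0.02) and dendritic cell markers 3 of 3 (median 0.10), with 0 called. Adipocyte markers were higher in LH for 8 of 8 genes (median 0.43, 0 called) and endothelial markers for 5 of 5 (median 0.28, 0 called). The part of these cells in the class I values was not tested.

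The second comparison asks the same in sons of HF dams. No presentation gene was called in HH against HL either (limma, 0 of 27, against 0.512% of all probes). At an unadjusted p under 0.05 there were 4 of 27, against 16.9% of all probes. Among all probes 55.9% were higher in HH. In all, 25 of the 27 genes were higher in HH, including 18 of 18 class I genes and 7 of 8 class II genes, with medians of 0.22 and 0.24 (all probes 0.02). This lean rested on HL animals 2, 6 and 8. Without them 15 of 27 were higher, the medians were 0.01 for class I and -0.03 for class II, and the 1 gene with an unadjusted p under 0.05 was the neighbour H2-Ke6.

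H2-T23, which encodes the nonclassical molecule Qa-1 that presents class I leader peptides to NK cells, had the smallest p. It read 906.8, 2160.5 and 2997.1 units (lowest, median, highest) in HL and 1826.3, 2849.6 and 4090.9 in HH. The ranges overlapped, with 4 HH animals above the highest HL animal. The log2 difference was 0.54 ± 0.20 (SE, adjusted p = 0.219), or 0.29 without the low-correlation arrays, and a second probe gave 0.30 ± 0.16 over all 20.

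H2-Q7, a Qa-2 heavy chain, read 371.5, 687.8 and 1211.6 units in HL and 693.4, 1013.05 and 1456.6 in HH, a log2 difference of 0.52 ± 0.20 (adjusted p = 0.23), or 0.24 without the low-correlation arrays. All 10 HH animals were above the HL median, but only 2 exceeded the highest HL animal. H2-D1 read 279.3, 746.3 and 1589.5 units in HL and 464.1, 1303.1 and 2522.0 in HH. Its log2 difference was the largest of the 27 at 0.80 ± 0.33 (adjusted p = 0.247) and was 0.39 without the low-correlation arrays. B2m differed by 0.26 ± 0.11 (adjusted p = 0.259), Cd74 by 0.33 ± 0.19 (adjusted p = 0.356) and H2-Ab1 by 0.31 ± 0.21 (adjusted p = 0.43), and without the low-correlation arrays these were 0.06, 0.02 and -0.05. Nlrc5 and Tap1, which led in sons of LF dams, differed here by 0.23 ± 0.18 and 0.05 ± 0.10, and both were below 0 without the low-correlation arrays (-0.08 and -0.08). The marker counts that follow include the low-correlation arrays. Macrophage markers were higher in HH for 6 of 6 genes (median 0.44, 0 called). Adipocyte markers were higher for 8 of 8 (median 0.36, 0 called) and endothelial markers for 5 of 5 (median 0.60, 0 called). Dendritic cell markers were higher for 2 of 3 (median 0.14, 0 called) and T and NK cell markers for 2 of 7 (median -0.005, 0 called). Testis markers were lower for 7 of 7 (median -1.25, 0 called). The part of the marked cells and tissue in the values was not tested.

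**Figure D3:**
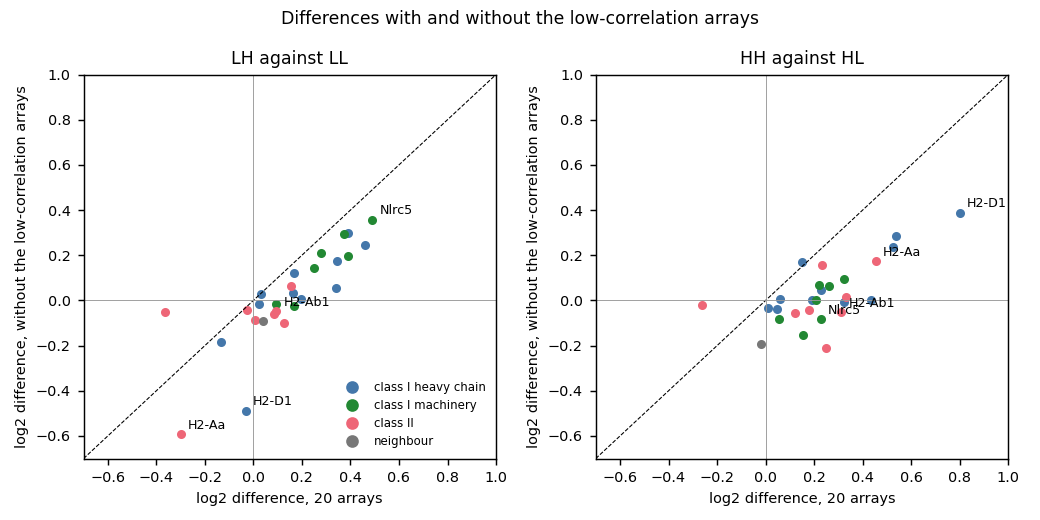
Log2 difference of each of the 27 genes that passed the filter over all 20 arrays (x axis) against the value without the low-correlation arrays (y axis), for LH against LL and for HH against HL, coloured by class. In HH against HL most points lie to the right of 0 and near 0 on the y axis (class I median 0.22 against 0.01), whereas Nlrc5 in LH against LL keeps 0.36 of 0.49.

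Whether the response to the diet differed between the maternal diets was asked of the interaction over all 40 arrays. No presentation gene was called (limma, 0 of 27, with 0.0% of all probes called), and 0 of 27 had an unadjusted p under 0.05 against 4.36% of all probes. Tap1 had the smallest p, with a log2 interaction of -0.22 ± 0.13 (adjusted p = 0.935). H2-Aa followed with 0.76 ± 0.43 (adjusted p = 0.935), and H2-DMb1, a chain of the class II peptide editor, with 0.26 ± 0.17 (adjusted p = 0.935). Nlrc5 gave -0.26 ± 0.22, with an interval from -0.70 to 0.18 (adjusted p = 0.945). The larger difference of Nlrc5 among sons of LF dams was thus not shown to differ from that among sons of HF dams. Class II genes were above 0 in 8 of 8 cases (median 0.17) and the class I machinery in 1 of 7 (median -0.07). Of all probes, 46.2% were above 0. Without the low-correlation arrays class II had 5 of 8 above 0 and the class I machinery again 1 of 7.

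The third comparison asks what the maternal HF diet did in sons weaned to the LF diet. No presentation gene was called in HL against LL (limma, 0 of 27, with 0.0% of all probes called), and 0 of 27 had an unadjusted p under 0.05 against 1.08% of all probes. The smallest p-values belonged to H2-DMb1, with a log2 difference of -0.22 ± 0.13, Ciita with -0.19 ± 0.15 and H2-M9, a class I heavy chain of the M region, with 0.10 ± 0.08, each with an adjusted p of 1. Among all probes 43.7% were higher in HL. All 8 class II genes were lower in HL (median -0.19) as were 14 of 18 class I genes (median -0.08). Both groups hold low-correlation arrays, and without them the medians were -0.03 and -0.01.

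The fourth comparison asks the same in sons weaned to the HF diet, where neither group held a low-correlation array. No presentation gene was called in HH against LH (limma, 0 of 27, with 0.0% of all probes called), and 3 of 27 had an unadjusted p under 0.05 against 12.5% of all probes. All 3 belonged to the class I machinery and were lower in HH. This comparison shares the LH animals with the first, so the values repeat what is high in LH. Nlrc5 differed by -0.41 ± 0.09 (interval -0.60 to -0.22, adjusted p = 0.0907), and 0 of 10 HH animals were above the LH median. Tap1 read 121.6, 140.15 and 163.8 units in HH (lowest, median, highest), against 140.9, 158.8 and 184.5 in LH, a log2 difference of -0.20 ± 0.06 (adjusted p = 0.179), or -0.36 with background subtraction. Tap2, the second transporter subunit, differed by -0.19 ± 0.09 (adjusted p = 0.396). T and NK cell markers were lower in HH for 7 of 7 genes (median -0.20, 0 called). Adipocyte markers were higher for 3 of 8 (median -0.11, 0 called), and their smallest p belonged to Pparg, with -0.42 ± 0.10 (adjusted p = 0.112). Macrophage markers were higher for 4 of 6 (median 0.09), dendritic cell markers for 0 of 3 (median -0.10) and endothelial markers for 2 of 5 (median -0.05), with 0 called. The part of the marked cells in these values was not tested. The class I heavy chains were higher in HH for 7 of 11 (median 0.08) and class II for 5 of 8 (median 0.03). Of all probes, 43.0% were higher in HH. H2-D1 and H2-Aa had the largest differences upwards, 0.53 ± 0.32 (adjusted p = 0.499) and 0.50 ± 0.27 (adjusted p = 0.451). Cage and maternal diet cannot be told apart here, and over cage means Nlrc5 gave -0.37 (adjusted p = 0.788).

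**Figure D4:**
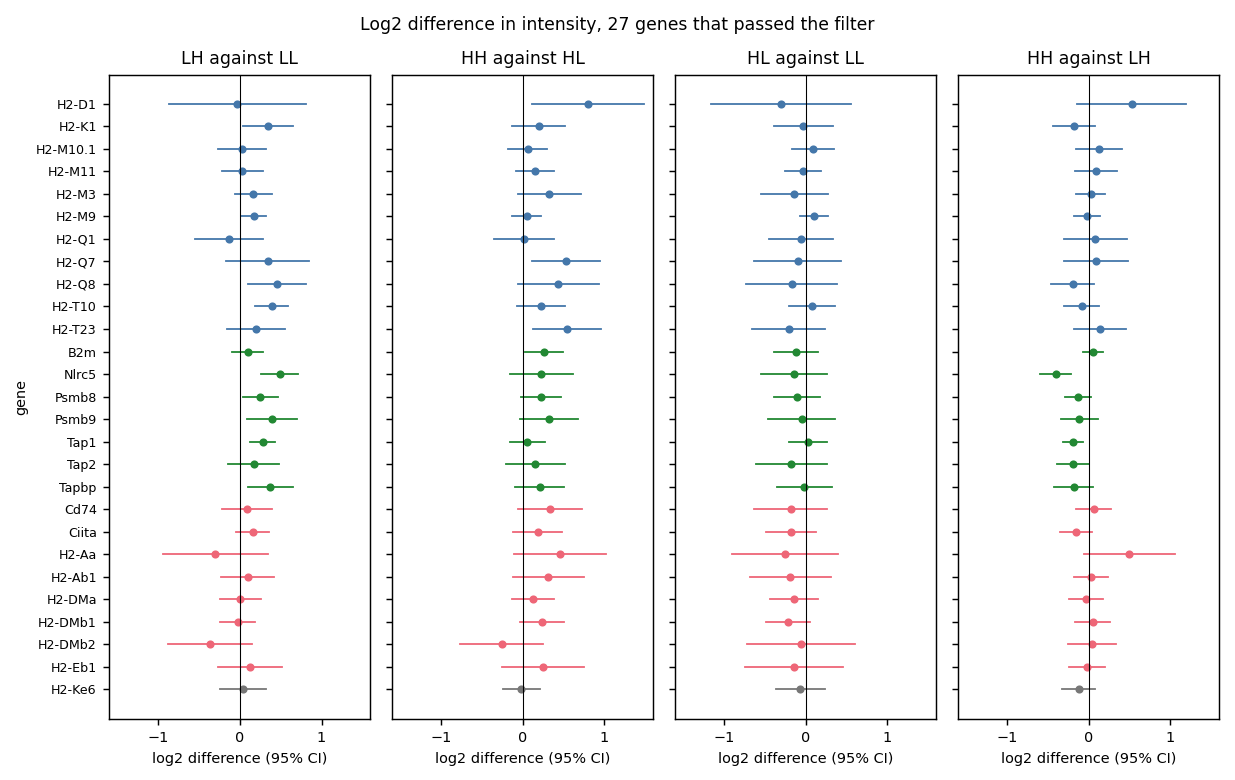
Log2 difference with its 95% interval (x axis) for the 27 genes that passed the filter (y axis), in 4 comparisons of 10 against 10 arrays, coloured by class as blue for class I heavy chains, green for class I machinery, red for class II and grey for H2-Ke6. The intervals of Nlrc5 lie above 0 in LH against LL (0.26 to 0.71) and below 0 in HH against LH (-0.60 to -0.22), while those of every class II gene cross 0 in all 4 panels.

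The 24 other antigen processing genes measured (from a list of 27 with the proteasome activator, peptide trimming, cathepsins, lysosomal reductase, ubiquitin ligases, class II promoter factors and costimulators) were counted in the same fits, and 20 passed the filter. None was called in any comparison (limma, 0 of 20), where at most 0.512% of all probes were called. At an unadjusted p under 0.05 there were 1 in LH against LL and 4 in HH against HL, against 12.8% and 16.9% of all probes. There were 0 in HL against LL, 1 in HH against LH and 1 in the interaction, against 1.08%, 12.5% and 4.36% of all probes. Psmb10, the third immunoproteasome subunit, had the smallest p in LH against LL, with 0.35 ± 0.15 (adjusted p = 0.357), and in HH against LH, with -0.22 ± 0.08 (adjusted p = 0.253). Its LH median was 1388.1 units, against 1182.6 for LL, 1086.2 for HL and 1125.8 for HH. LH was the highest group, as it was for Nlrc5 and Tap1.

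Over animals the class II genes fell into separate patterns. H2-Ab1 and Cd74, the chain and its chaperone, varied together, with r = 0.97 and rho = 0.94 over 40 arrays (permutation p = 1e-05 for both, the smallest that 100000 resamples can give). The 12 relations computed were adjusted together, giving 2e-05 and 2.4e-05. Without the 2 arrays farthest in H2-Ab1 r was 0.94, over the 35 arrays it was 0.92, after removal of group means 0.97 and over the 12 cage means 0.96. H2-Ab1 and H2-Eb1, a pair chosen after their values were seen, gave r = 0.93 and rho = 0.84 (permutation p = 1e-05 for both, adjusted 2e-05 and 2.4e-05), with r = 0.88 without the 2 farthest arrays and 0.81 over the 35. H2-Ab1 and Ciita gave r = 0.74 and rho = 0.54 over 40 arrays (permutation p = 1e-05 and 0.00045, adjusted 2e-05 and 0.0009), with r = 0.53 without the 2 farthest arrays. Over the 35 this fell to r = 0.34 (adjusted permutation p = 0.0831).

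H2-Ab1 and the macrophage gene Adgre1 gave r = 0.54 and rho = 0.34 over 40 arrays (permutation p = 0.00035 and 0.0318, adjusted 0.00042 and 0.0347), r = 0.32 without the 2 farthest arrays and r = -0.05 over the 35. The relation rested on the low-correlation arrays. The same held for H2-Ab1 with the B cell gene Cd79b (r = 0.34 and rho = 0.18, permutation p = 0.0334 and 0.253, adjusted 0.0334 and 0.253, r = 0.13 without the 2 farthest arrays, r = -0.01 over the 35). Across the classes, H2-Ab1 and H2-K1 gave r = 0.64 and rho = 0.40 (permutation p = 2e-05 and 0.0109, adjusted 3.43e-05 and 0.0163), r = 0.45 without the 2 farthest arrays and r = 0.18 over the 35 (adjusted permutation p = 0.431).

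Within class I, Psmb9 and Tap1, which share the stretch between their starts, gave r = 0.74 and rho = 0.70 over 40 arrays (permutation p = 1e-05 for both, adjusted 2e-05 and 2.4e-05). Without the 2 farthest arrays r was 0.68, over the 35 arrays r was 0.61 (adjusted permutation p = 0.000264) and over cage means 0.82. H2-K1 and Nlrc5 gave r = 0.66 and rho = 0.53 (permutation p = 3e-05 and 0.0007, adjusted 4.5e-05 and 0.0012), with r = 0.55 without the 2 farthest arrays and r = 0.36 over the 35 (adjusted permutation p = 0.067). H2-K1 and its partner B2m gave r = 0.66 and rho = 0.37 (permutation p = 7e-05 and 0.0192, adjusted 9.33e-05 and 0.023), with r = 0.54 without the 2 farthest arrays and r = 0.12 over the 35 (adjusted permutation p = 0.594). Tap1 and Nlrc5, chosen after their values were seen, gave r = 0.83 and rho = 0.77 (permutation p = 1e-05 for both, adjusted 2e-05 and 2.4e-05), r = 0.76 without the 2 farthest arrays, r = 0.67 over the 35 arrays and 0.52 over the 35 after removal of group means. The adjustment does not cover this choice of the pair. The tie was not particular to the class I transactivator. Over the 35 arrays Tap1 gave r = 0.69 with Ciita, the class II transactivator, and 0.69 with H2-M3, and Nlrc5 gave 0.57 with Ciita.

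H2-D1 and H2-Aa were among the members that varied most between animals. H2-D1 varied 10.8-fold between the lowest and the highest animal, with a log2 SD at the 97th percentile of the probes that passed the filter, and H2-Aa varied 5.65-fold (percentile 93.7). By fold alone, H2-DMb2 (7.56-fold) and H2-Q7 (5.9-fold) were wider than H2-Aa, and H2-Ab1 varied 3.97-fold (percentile 79.2). In LH, 6 of the 10 H2-D1 values lay between 551.9 and 699.0 units, the highest 2 were 2354.2 and 2422.7, and the remaining animals lay between these. In HH the values spread from 464.1 to 2522.0, with a median of 1303.1 against 681.1 in LH. H2-D1 encodes a class I chain and H2-Aa a class II chain, yet they varied together (pair chosen after their values were seen: r = 0.94 and rho = 0.95 over 40 arrays, permutation p = 1e-05 for both, adjusted 2e-05 and 2.4e-05, r = 0.94 without the 2 farthest arrays and 0.94 over the 35). H2-Aa and H2-Ab1, the chains of one molecule, were also a pair chosen after their values were seen. By contrast they gave r = 0.49 and rho = 0.39 (permutation p = 0.00083 and 0.014, adjusted 0.000905 and 0.0187), r = 0.35 without the 2 farthest arrays and r = 0.17 over the 35 (adjusted permutation p = 0.431).

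As a description over the 35 arrays, 458 probes had a correlation above 0.9 with H2-D1 and 207 with H2-Aa, against 3 with H2-Ab1, 2 with Cd74 and 0 with H2-K1 or Nlrc5. The genes most like H2-D1 were Selenop (r = 0.97), Pon3 (0.97) and Usp25 (0.97), and those most like H2-Aa Selenop (0.95), Ogn (0.95) and Glul (0.95). Those most like Nlrc5 were Irgm2 (0.81), Smad2 (0.79) and Gbp2 (0.79), and Gbp2 also led for Tap1 (0.82). Irgm2 and Gbp2 encode interferon-inducible GTPases. H2-T23 and H2-Q7 were each other's closest match (0.92). Among members, H2-D1 was also like H2-Q7 (0.85) and H2-T23 (0.81), and H2-Aa like H2-Q7 (0.77).

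**Figure D5:**
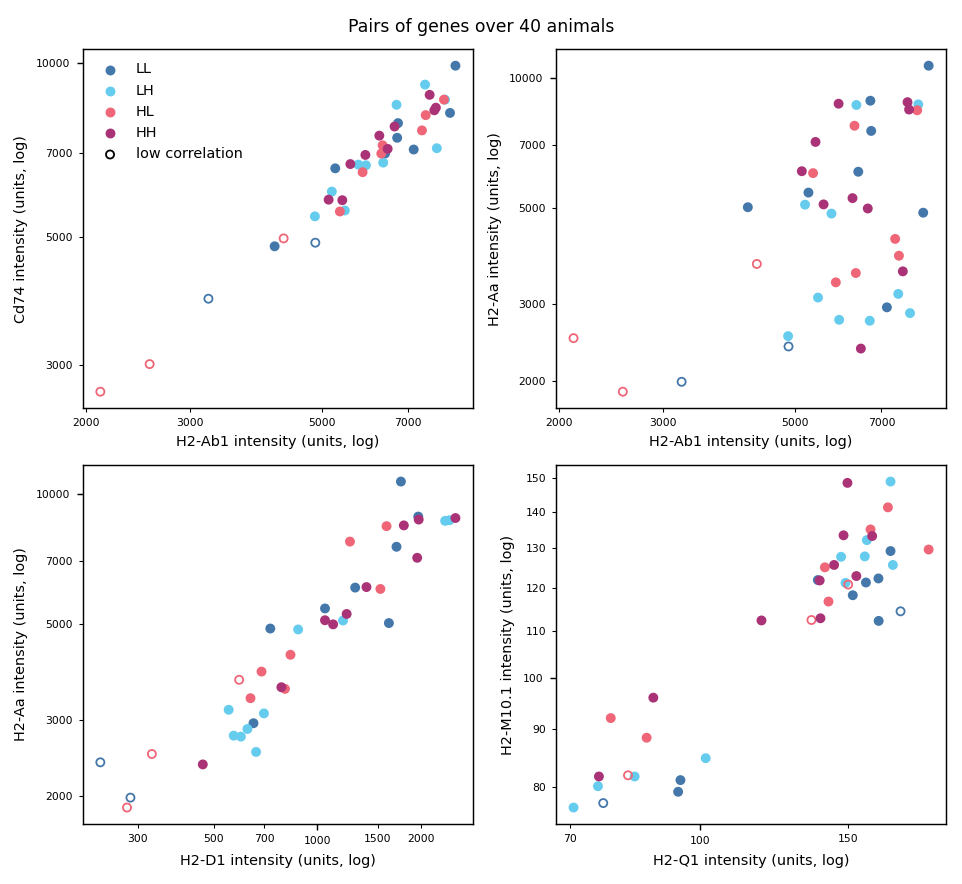
Intensity of one gene against another (both axes in units, log scale) in the 40 animals, coloured by group, with the low-correlation arrays as open circles. H2-Ab1 and Cd74 lie on a line (r = 0.97) as do H2-D1 and H2-Aa (r = 0.94), H2-Ab1 and H2-Aa scatter (r = 0.17 over the 35 arrays), and H2-Q1 with H2-M10.1 falls into separate clouds of 12 and 28 arrays.

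H2-Q1 and H2-M10.1, dim class I genes, took values in separate ranges. H2-Q1 read 70.7 to 101.6 units on 12 arrays and 118.4 to 187.3 on the other 28, and H2-M10.1 read 76.8 to 96.0 on the same 12 arrays and 112.2 to 148.9 on the rest. The 12 arrays comprised 3 LL, 4 LH, 3 HL and 2 HH animals, so that each group held both ranges. No correlation is given for this pair, since the arrays fall into clusters. The first principal component of the background probes, which encode olfactory and vomeronasal receptors, split the arrays the same way, with scores of 3.48 to 4.52 on these 12 arrays and -2.71 to -0.50 on the other 28. Over 40 arrays H2-D1 and H2-Aa also correlated with this component (r = -0.539 and -0.536), whereas H2-Ab1 and Cd74 gave 0.095 and -0.006. The part of this array split in the joint variation of H2-D1 and H2-Aa was not tested.

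Several genes had more than 1 probe above background. The 4 H2-Ab1 probes gave log2 differences of LH against LL between 0.10 and 0.17 and of HH against HL between 0.21 and 0.31. The Cd74 probes gave 0.09 and 0.09 in LH against LL, and the B2m probes 0.09 and 0.13. For other genes the probes disagreed. The H2-T23 probes gave 0.20 and -0.02 in LH against LL. The Tapbp probes gave -0.187 and -0.004 in HH against LH, and -0.17 and 0.11 in the interaction. The second H2-K1 probe read medians of 188.1 (LL), 155.4 (LH), 127.6 (HL) and 155.4 units (HH), where the first read 268.3, 300.2, 259.0 and 268.35. The first probe was highest in LH and the second in LL.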

How the data were processed

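Total RNA of gonadal white adipose tissue was hybridised to Illumina MouseRef-8 bead arrays. The deposited values are probe intensities on a linear scale, which the authors read with BeadStudio and quantile-normalized, and no background subtraction or floor beyond that is given in the sources used here. All sorted array columns matched within 2.32%, and array medians ran from 98.7 to 99.1 units. No 2 arrays were identical. The 5 low-correlation arrays had a mean correlation with the others below 0.926, a limit set 3 scaled median absolute deviations under the median of 0.951.

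Intensities were taken to log2 without further normalization. Of 25697 probes, 14248 passed the filter on dim probes. Each pair of groups was fitted on its own 20 arrays, and the interaction on all 40, with limma 3.58.1 (lmFit, eBayes with an intensity trend) in R 4.3.3. P-values were adjusted by Benjamini-Hochberg over the 14248 probes and called under 0.05. The fits were tested on simulated data. The labels name separate mice as replicates. Groups came from the labelled maternal and post-weaning diets.

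The rule for the genes named was: members called, the 3 with the smallest p where fewer than 3 were called, and a fixed list. The list held H2-K1, H2-D1, B2m, Tap1, Psmb8, H2-Aa, H2-Ab1, H2-Eb1, Cd74, Ciita, Nlrc5 and H2-Ea. The alternatives covered the listed genes that passed the filter in every comparison. In the results above, only LH against LL gives the differences of all of these. The other comparisons and the interaction give only some of them, and the rule did not fix which. Psmb9, Tapbp, H2-DMb2 and other members named outside this rule were chosen after their values were seen. The members and lists were chosen with earlier results of these data known. Gene names came from the platform annotation and all 44 members matched RefSeq by Entrez ID. Promoter windows came from RefSeq (GRCm38.p6) and were searched with Python 3.11.15. Correlations used 100000 permutations. Cages, scaling, filters, probe choice, array weights and left-out arrays or cages were varied as alternatives.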

Additional observations from a re-analysis of the deposited data

Results flagged for a closer look

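Within groups of 10 animals, 9 single values among the 176 combinations of gene and group lay apart from the rest by Dixon's criterion for the gap over the range, and chance marks about 1 in 20 groups. Of these, 3 came from HL animal 8, a low-correlation array, and concerned class I genes that did not pass the filter: H2-Bl read 242.4 units (next in HL 73.2), H2-Q2 256.7 (next 76.9) and H2-M2 167.1 (next 92.4). Over the 40 arrays H2-Bl was above background on 1, H2-Q2 on 3 and H2-M2 on 10. H2-DMb2, a class II peptide editor chain, read 650.9 units in LL animal 1, another low-correlation array, where the next LL animal had 211.6 and the LL median was 133.8. LL animal 4, also a low-correlation array, was lowest for H2-M9 at 70.5 units (next 88.4) and for H2-Ke6 at 1554.4 (next 2473.1). H2-M11 was lowest in LL animal 10 at 55.4 units (next 80.2). H2-Q2 in LH animal 6 read 88.0 units (next 72.3) and H2-Eb2 in LL animal 7 read 90.0 (next 84.3), both near the background limit.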

How the results depend on the processing

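No presentation gene was called in any of the 5 fits, and this held in HH against HL and HL against LL under every alternative run. In LH against LL, 1 gene (Nlrc5) was called with median centring (adjusted p = 0.0395) and 1 (Nlrc5) without the low-correlation arrays, and 3 (Nlrc5, H2-T10, Tap1) with array weights. With each cage left out in turn the count ran from 0 to 2, and it was 2 (Nlrc5, H2-T10) without cage 6. In HH against LH array weights called 1 gene (Tap1), and in the interaction 5 (H2-Aa, H2-D1, H2-T10, Tap1, Tapbp). Array weights also raised the calls over all probes, from 31 to 297 in LH against LL, from 0 to 157 in HH against LH and from 0 to 1905 in the interaction. The cause was not tested. Of 1324 alternative values for 62 log2 differences of named genes, 1245 kept their sign and side of the threshold, 11 became called and 68 changed sign, none of the last being called. Without the low-correlation arrays, values crossed 0 in LH against LL B2m at -0.016, Cd74 at -0.058, H2-Ab1 at -0.047 and H2-Eb1 at -0.102, and in HH against HL Nlrc5 at -0.084, Tap1 at -0.082, Ciita at -0.043, H2-Ab1 at -0.052 and H2-Eb1 at -0.21, and in HL against LL Nlrc5 at 0.033, H2-Ab1 at 0.03 and H2-Eb1 at 0.084, and in the interaction Ciita at -0.107, H2-Ab1 at -0.004 and H2-Eb1 at -0.108. With array weights, values crossed 0 in LH against LL B2m at -0.009, Cd74 at -0.071, H2-Ab1 at -0.025 and H2-Eb1 at -0.087, and in HH against HL Nlrc5 at -0.039, Tap1 at -0.139, Ciita at -0.063, H2-Ab1 at -0.052 and H2-Eb1 at -0.128, and in HL against LL Nlrc5 at 0.046, H2-Ab1 at 0.041 and H2-Eb1 at 0.069, and in HH against LH H2-Eb1 at 0.023, and in the interaction Ciita at -0.126, H2-Ab1 at -0.042 and H2-Eb1 at -0.053. With cages as a fixed term, values crossed 0 in LH against LL Cd74 at -0.027, H2-Ab1 at -0.111 and H2-Eb1 at -0.076, and in the interaction H2-K1 at 0.052, Nlrc5 at 0.193 and Psmb8 at 0.092. With the next brightest probe, values crossed 0 in LH against LL H2-K1 at -0.023, and in HH against LH H2-K1 at 0.222 and H2-Ab1 at -0.043, and in the interaction H2-K1 at 0.618. Over cage means, values crossed 0 in HL against LL Tap1 at -0.013, and in HH against LH H2-Ab1 at -0.005. With the first principal component of the background probes as a covariate (added after seeing the data), values crossed 0 in LH against LL H2-D1 at 0.015. With each cage left out in turn, ranges that included 0 were found in HH against LH B2m (-0.004 to 0.083), Cd74 (-0.022 to 0.115), H2-Ab1 (-0.039 to 0.095) and H2-Eb1 (-0.098 to 0.051), and in LH against LL Cd74 (-0.014 to 0.233) and H2-D1 (-0.208 to 0.234), and in the interaction Ciita (-0.06 to 0.094), H2-Eb1 (-0.015 to 0.222) and Psmb8 (-0.112 to 0.046), and in HL against LL H2-K1 (-0.114 to 0.092) and Tap1 (-0.059 to 0.075). The correlation of H2-Ab1 with Adgre1 became -0.049 without the low-correlation arrays and -0.042 over cage means, that with Cd79b became -0.011 without the low-correlation arrays, and that of H2-Aa with H2-Ab1 -0.06 over cage means. Without the low-correlation arrays, r of H2-Ab1 with Ciita (0.335) and with H2-K1 (0.184), and of H2-K1 with B2m (0.119) and Nlrc5 (0.361), no longer passed the adjusted threshold. The filter changed no correlation, since every gene of a pair passed it. No paired analysis was possible because the labels number no litters or animals across groups, and replicate numbers here follow accession order; cages that held both post-weaning diets enter as the fixed term above. HH against LH holds no low-correlation array and could not be fitted with cages as a fixed term, nor could HL against LL. Dim probes limit Tap1, H2-T10 and Psmb8: with background subtraction their log2 differences of LH against LL were 0.53, 0.90 and 0.44 (0.28, 0.39 and 0.25 without it), and with an offset of 50 units 0.20, 0.27 and 0.19.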
